A study of Mus musculus with 8 samples.

Results

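Axon guidance ligands and receptors were followed in mouse neural stem cells (NSCs) 7 days after X-ray irradiation (irr) with 10 Gy. The genes were taken by name: every gene of the array with a symbol that begins with Sema, Plxn, Epha, Ephb, Efna, Efnb, Robo, Ntn or Unc5, together with Nrp1, Nrp2, Slit1, Slit2, Slit3, Dcc and Neo1. This gave 74 of 18193 genes, read by 167 of 45101 probe sets, and each gene was represented by the probe set with the highest mean over all 8 arrays. Of these, 71 genes (162 probe sets) encode guidance ligands or receptors, 37 ligands and 34 receptors. The other 3 (Unc50, Unc5cl and Plxna4os1) match by the first letters of the symbol but are not guidance ligands or receptors, and were kept out of the counts. Ephb2 was not analysed here.

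Guidance cues are secreted or membrane-bound proteins that steer growing axons and migrating cells by attraction or repulsion. Secreted class 3 semaphorins bind a neuropilin held in a complex with a plexin, whereas most membrane-bound semaphorins bind plexins directly. Ephrins, anchored in the membrane of one cell, bind Eph receptor tyrosine kinases on its neighbor and can signal in both directions. Slit proteins repel through Robo receptors, and netrins attract through Dcc and neogenin (Neo1) or repel through Unc5 receptors. Many of these proteins also act in radial glia and astrocytes, where they take part in cell migration, cell sorting and contact between cells.

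RNA was measured on 4 arrays of non-irradiated (non-irr) NSCs and 4 arrays of irr NSCs, described as biological quadruplicates. Cells of both groups were derived from mouse embryonic stem (ES) cells, were grown as stable lines with EGF and FGF2, and irr cells were not passaged after the treatment; which line the arrays hold is not given in the sources used here. All values are log2 RMA values, a scale on which 1 unit is a 2-fold change, and every fold change is irr over non-irr. Of 9 NSC markers, 8 were above the intensity filter in at least 1 array (an intensity of 100, or 6.64 on the log2 scale), Sox1 being below it. The arrays correlated at 0.996 to 0.998 within groups and at 0.972 to 0.976 between them. The second principal component (3.68% of the variance) set irr arrays 1 and 2 apart from irr arrays 3 and 4. Along it irr arrays ran from -19.1 (array 1) to 14.4 (array 4), and non-irr arrays also spread, from -8.02 (array 2) to 12.1 (array 4).

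The sequences directly upstream of the genes with the largest increases are shown first, as the annotated promoters of the genes that the results below turn on; the arrays do not tell which start site was used. Of the 12 guidance genes that changed at least 2-fold, 11 had a promoter in the RefSeq-derived table (build GRCm38.p6), in 12 windows of 250 bases that end before the annotated start. Printed 5′ to 3′ on the strand of the gene are the windows of the 5 genes with the largest increases, with each GC box (GGGCGG on either strand, overlapping matches included) in capitals.
Nrp1 (chr8:128358823-128359072, plus strand): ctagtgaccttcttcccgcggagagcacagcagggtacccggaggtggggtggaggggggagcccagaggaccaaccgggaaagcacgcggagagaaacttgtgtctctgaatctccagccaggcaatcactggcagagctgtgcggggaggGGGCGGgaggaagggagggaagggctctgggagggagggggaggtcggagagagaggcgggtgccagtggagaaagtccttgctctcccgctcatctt
Ntn4 (chr10:93640799-93641048, plus strand): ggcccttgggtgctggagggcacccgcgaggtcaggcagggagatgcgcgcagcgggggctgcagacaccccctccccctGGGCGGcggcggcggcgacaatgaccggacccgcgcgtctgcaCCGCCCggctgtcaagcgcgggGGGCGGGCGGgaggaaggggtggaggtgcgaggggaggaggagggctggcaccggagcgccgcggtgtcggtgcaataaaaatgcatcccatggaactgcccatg
Epha4 (chr1:77515089-77515338, minus strand): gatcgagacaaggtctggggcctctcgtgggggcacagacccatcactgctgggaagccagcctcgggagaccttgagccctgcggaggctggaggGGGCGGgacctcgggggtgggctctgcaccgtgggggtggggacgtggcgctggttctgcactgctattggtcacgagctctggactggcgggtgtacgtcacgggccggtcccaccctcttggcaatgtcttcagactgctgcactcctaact
Efnb2 (chr8:8661243-8661492, minus strand): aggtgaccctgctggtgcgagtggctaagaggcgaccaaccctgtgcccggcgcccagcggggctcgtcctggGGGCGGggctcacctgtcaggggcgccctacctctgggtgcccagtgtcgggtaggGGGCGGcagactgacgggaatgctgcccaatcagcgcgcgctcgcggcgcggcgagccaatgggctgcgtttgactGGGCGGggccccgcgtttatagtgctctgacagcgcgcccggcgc
Unc5b (chr10:60831582-60831831, minus strand): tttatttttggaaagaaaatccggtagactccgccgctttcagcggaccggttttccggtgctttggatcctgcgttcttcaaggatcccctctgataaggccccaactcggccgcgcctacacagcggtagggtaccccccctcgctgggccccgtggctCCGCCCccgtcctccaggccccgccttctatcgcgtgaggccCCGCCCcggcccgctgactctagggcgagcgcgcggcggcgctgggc
A GC box, the site known to be bound by SP1 family factors, occurred in 10 of the 12 windows and in 32.7% of all 32851 promoter windows of the same length. The windows of Robo1 and Sema3a held none. GC content over the 12 windows ranged from 40.8% (Sema3a) to 78.4% (Sema3c), beside a median of 52.4% over all windows. Only the Sema3a window lay below that median. The 12 windows include both of Efna3 and that of Sema5a, which fell. The GC box share was not compared with windows of like GC content. A STAT motif (TTCNNNGAA on either strand) was found in 1 of the 12 windows, an Efna3 window, and in 7.02% of all. The p53 half-site was found in 1 of them, with 2 matches upstream of Robo1, and in 7.13% of all. These matches describe letters in short windows, and the absence of a match says nothing about the factor.

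Guidance genes were more often higher than lower in irr NSCs. Of the 71 genes, 51 were above the filter, and 26 of these 51 (51%) were called higher and 12 (23.5%) lower at an adjusted p under 0.05 (limma, Benjamini-Hochberg over all probe sets above the filter), while 13 were not called. Among all 11364 genes above the filter, 40.2% were called higher and 37.1% lower. A change of at least 2-fold was seen in 11 genes that rose (21.6%) and 1 that fell (1.96%, Sema5a, by its measured values), beside 8.88% and 6.16% of all genes. Every irr array was above every non-irr array for 26 genes (51%) and below for 9 (17.6%), while the groups overlapped for 16. Among all genes these shares were 38.4% above and 35% below. The median log2 fold change was 0.29 over the 51 guidance genes and 0.01 over all genes. Centring the arrays on reference genes raised the median of all genes by 0.16 on the log2 scale. The split changed from 26 higher and 12 lower to 32 higher and 7 lower. The shares of all genes called under that centring are not given here, so this split has none to be read against. Among its reference genes, Pgk1, Hprt and Actb were themselves called lower and Sdha higher. Among ligands 12 rose and 8 fell of 26 above the filter, and among receptors 14 rose and 4 fell of 25. These counts, and the counts by family below, are small and are read against the 40.2% higher and 37.1% lower over all genes. Sema3b and Sema4g were above the filter on irr arrays alone, and Epha10, Ntn5, Sema4f and Sema5a on non-irr arrays alone, so that they were tested because of the group in which they were higher.

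**Figure D1:**
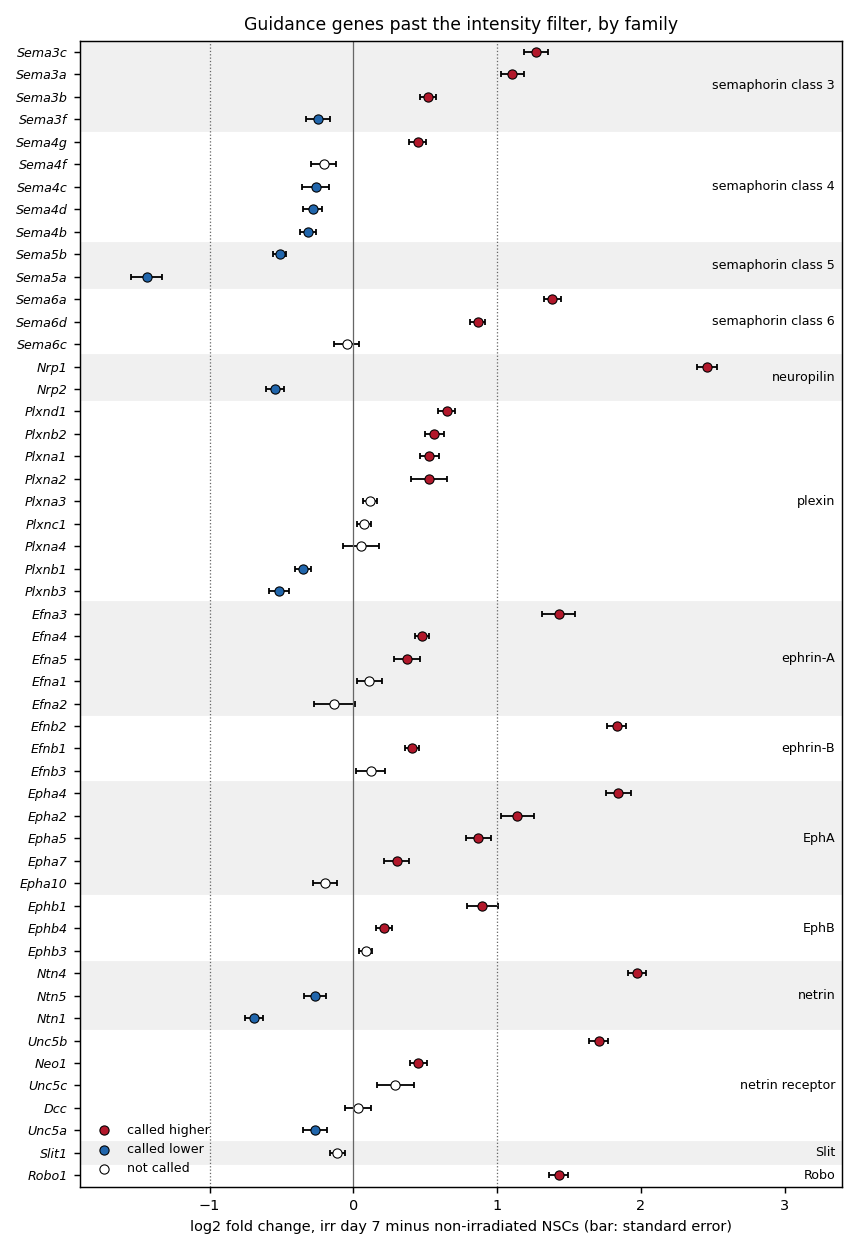
Log2 fold change of irr day 7 over non-irr NSCs for the 51 guidance genes above the filter, grouped by family, with 4 arrays per group, standard errors as bars and dotted lines at a 2-fold change. Filled red points were called higher (26), filled blue points lower (12) and open points were not called (13), and Nrp1 and Sema5a lie at the upper and lower ends.

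Other properties of the cells moved with the groups. Of the 8 NSC markers above the filter, Sox2, Vim and Fabp7 were called higher. Pax6, Hes5 and Msi1 were called lower, and Nes and Olig2 were not called. Of 8 astrocyte markers, 7 were called higher and 1 lower, beside 40.2% and 37.1% of all genes. Their mean level was 8.50 to 8.55 on non-irr arrays and 10.37 to 10.38 on irr arrays. Aqp4, the astrocyte water channel, rose at least 26.1-fold, and Apoe, which carries lipids, by 4.64 on the log2 scale. Slc1a2 rose by 2.74 on that scale, Aldh1l1 by 0.83, Gja1 by 0.75, Slc1a3 by 0.46 and S100b by 0.19. The mean level thus rose mostly through Aqp4, Apoe and Slc1a2. Gfap was called lower by a small margin (6.80 to 6.61), but it lay close to the filter. It was above the filter on 3 non-irr arrays and 1 irr array, and its groups overlapped. Of 8 neuron markers, 2 rose (Gap43 and Syt1) and 3 fell (Tubb3, Dcx and Rbfox3). Syt1 was above the filter on irr arrays alone, at least 1.61-fold higher. The mean level of the 8 markers was 6.82 to 6.94 on non-irr and 7.01 to 7.08 on irr arrays. Of 7 endothelial markers only Kdr was above the filter, and it fell, while Pecam1 and Cdh5 were below it on all arrays. Of 7 mesenchymal markers, Col3a1, Dcn and Lum rose, Acta2 fell and 3 were below the filter, Col1a1 and Col1a2 among them. Dcn and Lum were above it on irr arrays alone, at least 1.06-fold and 2.98-fold higher. The mean level of the 7 markers was 6.79 to 6.87 on non-irr and 7.19 to 7.29 on irr arrays. Of 6 microglia markers only Csf1r was above the filter, and none of the oligodendrocyte lineage or pluripotency markers above it was called. The gap between 3′ and 5′ probe sets of control transcripts was wider in irr NSCs for Actb (0.26 to 0.51), Tfrc (0.35 to 0.85) and Pcx (0.52 to 1.06), and near equal for Gapdh (-0.08 to -0.06). The part of these differences in the guidance gene results was not tested. In such bulk RNA, fewer cells of a type and less RNA per cell cannot be told apart.

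Nrp1 had the largest change of all guidance genes and Nrp2 moved the other way. Nrp1, the neuropilin that is a co-receptor for Sema3a and for VEGF, read 9.83, 10.09, 9.93 and 9.82 on non-irr arrays and 12.35, 12.46, 12.29 and 12.40 on irr arrays. The groups were separated by more than 2 units, and the increase was 5.50-fold (log2 fold change 2.46, SE 0.07, adjusted p = 1.72e-09, limma). Nrp2, which is preferred by Sema3f, read 7.18, 7.24, 7.04 and 7.11 on non-irr and 6.71, 6.58, 6.50 and 6.60 on irr arrays. Only irr array 1 remained above the filter, and Nrp2 fell by 0.55 on the log2 scale (SE 0.06, adjusted p = 2.39e-05), with no overlap of the groups.

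Of the 7 class 3 semaphorins, the secreted ligands of neuropilins, 4 were above the filter. Of these, 3 were called higher and 1 lower, beside 40.2% and 37.1% of all genes. Sema3c read 7.14, 7.31, 7.50 and 7.20 on non-irr and 8.66, 8.56, 8.40 and 8.62 on irr arrays. Sema3a, the classic repellent of sensory axons, read 8.55, 8.72, 8.64 and 8.49 on non-irr and 9.84, 9.78, 9.52 and 9.66 on irr arrays. Both were higher on every irr array, Sema3c 2.41-fold (log2 1.27, SE 0.09, adjusted p = 5.77e-07) and Sema3a 2.15-fold (log2 1.10, SE 0.08, adjusted p = 8.63e-07). Sema3b, a known p53 target, was below the filter on all non-irr arrays (mean 6.25) and above it on all irr arrays (mean 6.77), and so was higher by 1.09-fold or more (adjusted p = 1.75e-05). Sema3f read 9.08, 9.04, 9.19 and 9.43 on non-irr and 8.86, 8.95, 9.03 and 8.92 on irr arrays by its brightest probe set. By this probe set Sema3f fell by 0.25 on the log2 scale (SE 0.08, adjusted p = 0.0227), with the groups just apart, but its other 2 probe sets rose, by 0.68 on the log2 scale and, from below the filter on all non-irr arrays, by 1.06-fold or more, so that its direction is not settled.

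Class 4 semaphorins, which span the membrane and signal through plexins, were mostly lower by small amounts. Of 5 above the filter, Sema4b, Sema4c and Sema4d were called lower and Sema4g higher. Sema4b read 10.16, 10.06, 9.96 and 10.09 on non-irr and 9.80, 9.66, 9.78 and 9.78 on irr arrays, lower without overlap (log2 fold change -0.31, SE 0.06, adjusted p = 0.000562). Sema4d, a ligand of Plxnb1, had a log2 fold change of -0.28 and Sema4c one of -0.26, and with arrays centred on reference genes neither was called. Sema4c also lost its call without non-irr array 1, non-irr array 4, irr array 2 or irr array 4, and without irr arrays 3 and 4 together. Sema4g was below the filter on all non-irr arrays (6.48, 6.52, 6.37 and 6.44) and above it on all irr arrays (6.87, 6.81, 6.88 and 7.04), at least 1.20-fold higher (adjusted p = 7.29e-05). Sema4f had a mean of 6.60 in non-irr and 6.39 in irr NSCs (adjusted p = 0.052).

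Class 5 semaphorins, membrane proteins with thrombospondin repeats, were both lower, and class 6 held 2 genes that rose. Sema5a read 6.93, 7.15, 6.98 and 6.73 on non-irr arrays and 5.75, 5.52, 5.50 and 5.28 on irr arrays, all of the latter below the filter. It was therefore at least 1.24-fold lower (measured log2 fold change -1.44, SE 0.11, adjusted p = 1.27e-06). Sema5b fell by 0.51 on the log2 scale, from 8.54 ± 0.07 (SD, n = 4) to 8.03 ± 0.03. Sema6a, a transmembrane ligand of Plxna2 and Plxna4, read 9.10, 9.14, 9.13 and 9.24 on non-irr and 10.50, 10.54, 10.45 and 10.66 on irr arrays. The groups lay more than 1 unit apart, a 2.61-fold increase (log2 1.38, SE 0.06, adjusted p = 1.93e-08). Sema6d, the ligand of Plxna1, rose from 12.22 ± 0.05 to 13.09 ± 0.08 (log2 fold change 0.86), while Sema6c read 7.73 ± 0.17 and 7.68 ± 0.11 and was not called.

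All 9 plexins, the signaling receptors for semaphorins, were above the filter, and none changed 2-fold. Plxnd1, Plxnb2, Plxna1 and Plxna2 were called higher, Plxnb1 and Plxnb3 lower, and Plxna3, Plxna4 and Plxnc1 were not called. These 4 higher and 2 lower of 9 stand beside 40.2% higher and 37.1% lower over all genes. Plxna3 was close to the threshold (log2 fold change 0.12, adjusted p = 0.0546) and was called higher in 6 alternatives. Plxnd1, the receptor of Sema3e, read 8.36, 8.23, 8.34 and 8.43 on non-irr and 9.02, 8.89, 8.95 and 9.10 on irr arrays, so the groups were apart (log2 fold change 0.65, SE 0.06, adjusted p = 6.61e-06). The log2 fold changes of Plxnb2, Plxna1 and Plxna2 were 0.56, 0.53 and 0.52. Plxna2 was the least even of these, at 10.59, 10.26, 10.01 and 9.96 on irr arrays, and array 1 was the highest. Plxnb3 read 8.17, 8.12, 8.09 and 8.06 on non-irr and 7.40, 7.63, 7.69 and 7.65 on irr arrays, lower on each irr array (log2 fold change -0.52, SE 0.07, adjusted p = 6.67e-05). Plxnb1 had a log2 fold change of -0.35. Plxna4, a signaling partner of Nrp1 for Sema3a, lay close to the filter at 6.64 ± 0.28 and 6.69 ± 0.08 (adjusted p = 0.705).

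Eph receptors above the filter were higher or not called. Of the 9 EphA receptors 5 were above the filter, and Epha4, Epha2, Epha5 and Epha7 rose. Of the 4 EphB receptors analysed Ephb1 and Ephb4 rose and Ephb3 was not called. Together 6 of 8 were called higher and none lower, beside 40.2% and 37.1% of all genes. Epha4, which binds ephrins of both classes and is known in astrocytes, read 6.93, 7.25, 7.33 and 7.06 on non-irr and 9.00, 9.09, 8.97 and 8.88 on irr arrays. The increase was 3.59-fold (log2 1.84, SE 0.09, adjusted p = 5.21e-08), and the lowest irr array exceeded the highest non-irr array by more than 1 unit. Epha2, a known p53 target, read 7.15, 6.90, 6.73 and 7.24 on non-irr and 8.03, 8.18, 8.05 and 8.32 on irr arrays, 2.20-fold higher without overlap (log2 1.14, SE 0.11, adjusted p = 9.22e-06). Ephb1 read 7.90, 7.65, 7.45 and 7.40 on non-irr and 8.53, 8.34, 8.48 and 8.63 on irr arrays. Its groups did not overlap either, and its log2 fold change was 0.90 (SE 0.11, adjusted p = 3.91e-05), close to the 0.87 of Epha5. Epha7 (0.30) and Ephb4 (0.21) rose by less and were not called with irr arrays 3 and 4 left out together. Epha10 read 6.66 ± 0.16 and 6.46 ± 0.10, below the filter on all irr arrays (adjusted p = 0.0595).

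The 8 ephrins, the ligands of these receptors, were all above the filter. Of them, 5 were called higher and none lower, beside 40.2% and 37.1% of all genes. Efnb2, the transmembrane ligand of Ephb4 and of Epha4, read 8.65, 8.81, 8.75 and 8.66 on non-irr and 10.68, 10.58, 10.40 and 10.54 on irr arrays. The groups were well apart, and the increase was 3.56-fold (log2 1.83, SE 0.07, adjusted p = 8.62e-09). Efna3, a ligand held by a lipid anchor, read 6.62, 6.85, 6.73 and 6.85 on non-irr and 7.87, 8.14, 8.31 and 8.45 on irr arrays. Its irr arrays were more widely spread than those of the other genes changed 2-fold (SD 0.25), yet all lay above the non-irr arrays (2.69-fold, log2 1.43, SE 0.12, adjusted p = 2.16e-06). Efna4, Efnb1 and Efna5 had log2 fold changes of 0.48, 0.41 and 0.37, and Efnb1 was not called with plain probe set identifiers (0.16, adjusted p = 0.111). Efna1 (6.50 ± 0.15 and 6.61 ± 0.12), Efna2 (9.10 ± 0.22 and 8.96 ± 0.26) and Efnb3 (6.69 ± 0.21 and 6.81 ± 0.10) were not called.

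Netrins moved in opposite directions. Ntn4, a secreted netrin of basement membranes, read 8.87, 8.99, 9.00 and 9.09 on non-irr and 10.85, 10.94, 10.99 and 11.08 on irr arrays. It rose 3.93-fold with wide separation of the groups (log2 1.97, SE 0.06, adjusted p = 3.89e-09). Ntn1, the founding attractant of commissural axons, read 10.89, 10.89, 10.78 and 11.06 on non-irr and 10.24, 10.15, 10.21 and 10.25 on irr arrays. All irr arrays were lower, and Ntn1 fell by 0.69 on the log2 scale (SE 0.06, adjusted p = 4.33e-06). Ntn5 was called lower (adjusted p = 0.0113), at least 1.07-fold, from a mean of 6.74 to 6.47 with overlapping arrays, and lost its call with arrays centred on reference genes and without irr arrays 3 and 4.

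Among the netrin receptors, Unc5b and Neo1 rose and Unc5a was called lower. Unc5b, a dependence receptor and known p53 target, read 7.35, 7.17, 7.11 and 7.30 on non-irr and 8.89, 8.88, 8.93 and 9.05 on irr arrays. The irr arrays were all more than 1 unit above the non-irr arrays (3.26-fold, log2 1.70, SE 0.07, adjusted p = 1.25e-08). Neo1, which also binds repulsive guidance molecules, rose from 10.25 ± 0.11 to 10.70 ± 0.05. Unc5a read 7.21, 6.83, 7.01 and 7.02 on non-irr and 6.66, 6.67, 6.87 and 6.79 on irr arrays, with overlap between the groups. Its log2 fold change of -0.27 (SE 0.08, adjusted p = 0.0151) was -0.10 and not called with arrays centred on reference genes (adjusted p = 0.279), and -0.18 and not called without irr arrays 1 and 2 (adjusted p = 0.133). Unc5c read 6.63 ± 0.25 and 6.92 ± 0.16 (adjusted p = 0.0591). Dcc, the attractant netrin receptor, read 6.77 ± 0.19 and 6.80 ± 0.06 by its brightest probe set (adjusted p = 0.768), whereas its other 2 probe sets were called lower but were below an intensity of 100 on all irr arrays, the first at least 1.04-fold lower and the second without a bound.

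In the Slit and Robo families, 1 ligand and 1 receptor were above the filter. Robo1, a receptor of Slit proteins on neural cells, read 9.92, 10.00, 9.88 and 10.02 on non-irr and 11.51, 11.46, 11.29 and 11.26 on irr arrays. It was higher on all irr arrays, by 2.69-fold (log2 1.43, SE 0.07, adjusted p = 4.22e-08). Slit1 read 6.92 ± 0.04 in non-irr and 6.81 ± 0.09 in irr NSCs and was not called (adjusted p = 0.0833).

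**Figure D2:**
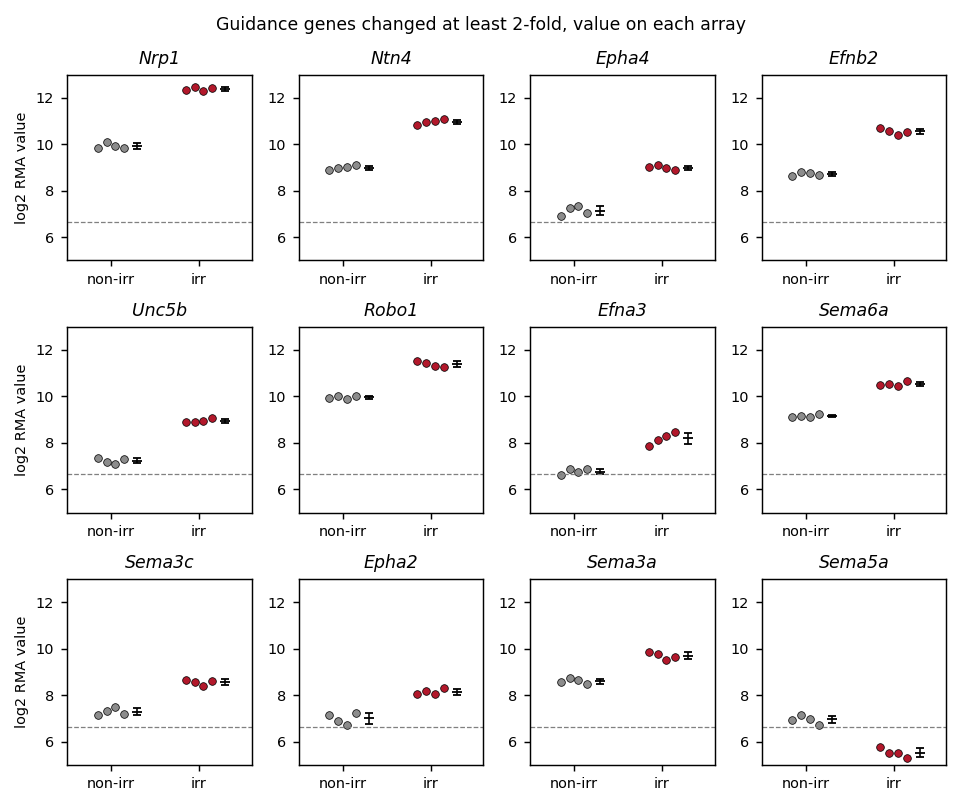
Log2 RMA value on each array for the 12 guidance genes changed at least 2-fold, with the 4 non-irr arrays in grey and the 4 irr arrays in red, in order of array number within a group, the mean and SD beside them, and the filter of 6.64 as a dashed line. The groups are apart in all 12 panels, 11 with higher irr arrays, and Sema5a is below the filter on every irr array.

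The remaining 20 guidance genes were below the filter on all 8 arrays and were not tested. They were Sema3d, Sema3e, Sema3g, Sema4a, Sema6b and Sema7a among semaphorins, Epha1, Epha3, Epha6, Epha8 and Ephb6 among Eph receptors, Ntn3, Ntng1, Ntng2 and Unc5d among netrins and their receptors, and Slit2, Slit3, Robo2, Robo3 and Robo4. Sema3e, the ligand of Plxnd1, had means of 4.65 and 4.76. Robo2 had means of 3.54 and 4.49 and Robo3 of 5.24 and 6.06, levels at which an order of the groups is not given here. Of the 3 genes taken by their first letters alone, Unc50, which is not a netrin receptor, rose from 11.56 to 11.98 (log2 fold change 0.42), and the other 2 were below the filter.

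Genes read by several probe sets allowed a comparison between them. Of 162 guidance probe sets, 91 were above the filter, and 52 of them were called higher, 23 lower and 16 neither. The shares called over all 21919 probe sets above the filter are not given here, so these counts only describe the guidance probe sets. In 26 genes more than 1 probe set was above the filter, and Sema3f was the 1 gene with calls in both directions. All 4 Nrp1 probe sets rose, with log2 fold changes of 2.44, 2.46 and 2.68 and, for the dimmest, which was below the filter on all non-irr arrays, at least 1.44-fold. The 4 of Epha5 rose as well (0.37 to 1.37). So did the 4 of Epha4 above the filter, by 1.84, 1.14 and 0.71 and, for the dimmest, below the filter on all non-irr arrays, by 1.27-fold or more. In the Epha4 probe set at 0.71 and in this dimmest one the groups overlapped. Both probe sets of Unc5b gave nearly the same value (1.70 and 1.69). The probe sets of Efnb2 gave 1.83 and 1.91 and, near the filter, a measured 0.61 without a bound, those of Sema6a 1.38, 0.68 and 0.23 and those of Sema3a 1.10 and 0.33. For these genes, and for Epha4 and Epha5, the size of the increase depended on the probe set. Nrp2 and Plxnb3 fell by both of their probe sets, the second of each being below the filter on all irr arrays and thus at least 1.51-fold (Nrp2) and 1.39-fold (Plxnb3) lower.

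**Figure D3:**
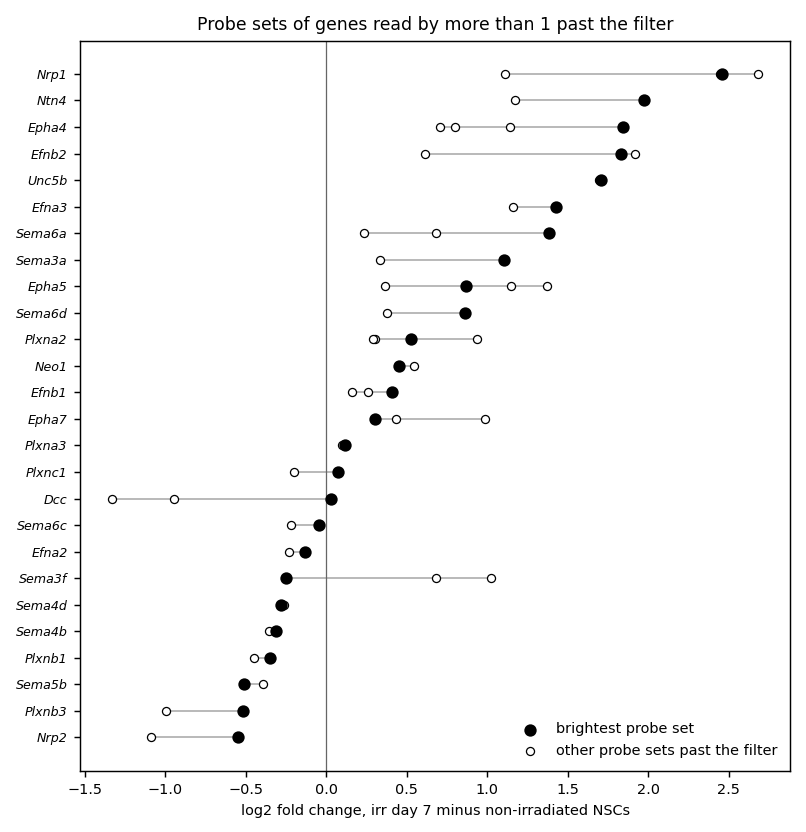
Log2 fold change of irr day 7 over non-irr NSCs for each probe set above the filter, in the 26 guidance genes with more than 1, the brightest probe set filled and the others open. Only Sema3f has called probe sets on both sides of 0, and the 2 open points of Dcc, from probe sets below the filter on all irr arrays, lie below 0 while its filled point lies at 0.03.

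Partners and effectors of these pathways were read from a list of 76 symbols, of which 71 genes were measured and 62 were above the filter, with 31 called higher, 13 lower and 18 neither, beside 40.2% higher and 37.1% lower over all genes. The median log2 fold change over these 62 genes was 0.13 and that over all genes 0.01, and 7 rose and 4 fell at least 2-fold (8.88% and 6.16% of all genes). Mmp2, a matrix metalloproteinase, had the largest increase, from 7.73, 7.70, 7.54 and 7.78 on non-irr to 11.62, 11.65, 11.72 and 11.77 on irr arrays. The groups were about 4 units apart, a 16.0-fold increase (log2 4.00, SE 0.06, adjusted p = 1.49e-10). Chl1, an adhesion molecule that joins Nrp1 in Sema3a receptor complexes, rose 4.90-fold, from 10.38, 10.48, 10.36 and 10.36 to 12.79, 12.75, 12.56 and 12.65 (adjusted p = 1.2e-09). Trim9, a ubiquitin ligase that binds Dcc, rose 3.25-fold, from 9.06, 9.00, 8.95 and 9.05 to 10.70, 10.72, 10.77 and 10.69 (adjusted p = 1.15e-09). Each of these 3 genes was higher on every irr array.

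Draxin, a secreted repellent that binds Dcc and netrin, had the largest decrease. It read 8.21, 7.92, 7.92 and 8.25 on non-irr arrays and 6.48, 6.21, 6.44 and 6.53 on irr arrays, all of these below the filter, and was at least 2.70-fold lower (adjusted p = 2.2e-07). Arhgap29, a GTPase-activating protein, fell from 10.58, 10.70, 10.70 and 10.70 to 9.27, 9.27, 9.22 and 9.22 (log2 fold change -1.43, adjusted p = 3.64e-09). Mical1, an enzyme that oxidizes actin downstream of plexins, fell from 9.07, 9.10, 9.01 and 8.90 to 7.64, 7.91, 7.99 and 8.003 (log2 fold change -1.14, adjusted p = 1.1e-06). None of these 3 genes had overlapping groups.

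The counts by role are small and are read against the same 40.2% higher and 37.1% lower over all genes. Of the 62 partner genes above the filter, 1 was so on irr arrays alone and 4 on non-irr arrays alone. These were tested because of the group in which they were higher. Of the roles, 6 of 8 netrin and Robo effectors above the filter rose and 1 fell (Enah, an actin regulator), and 2 of 3 Slit-Robo GTPase-activating proteins rose and none fell. Among the collapsin response mediator proteins, which act downstream of Sema3a, Dpysl3 rose and Crmp1, Dpysl2 and Dpysl5 fell, 1 of 4 against 3 of 4. Dpysl5 was above the filter on 1 non-irr array and on no irr array, so its decrease has no bound. Other guidance cues and receptors held 8 that rose and 4 that fell of 15, the repulsive guidance molecules Rgma (0.58) and Rgmb (0.85) being among the former. Neuropilin partners held 3 that rose (Chl1, Vegfa and Nrcam) and 1 that fell (Kdr) of 5, Eph effectors 2 that rose and 2 that fell of 9, and semaphorin-plexin effectors 3 that rose and 1 that fell of 6. The shedding proteases Adam10, which cuts ephrins, and Adam17, which cuts other surface proteins, had log2 fold changes of -0.04 and 0.04 and were not called. The list put Mmp2, given above with the largest increase, in the same role, so that 1 of 3 rose and none fell.

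**Figure D4:**
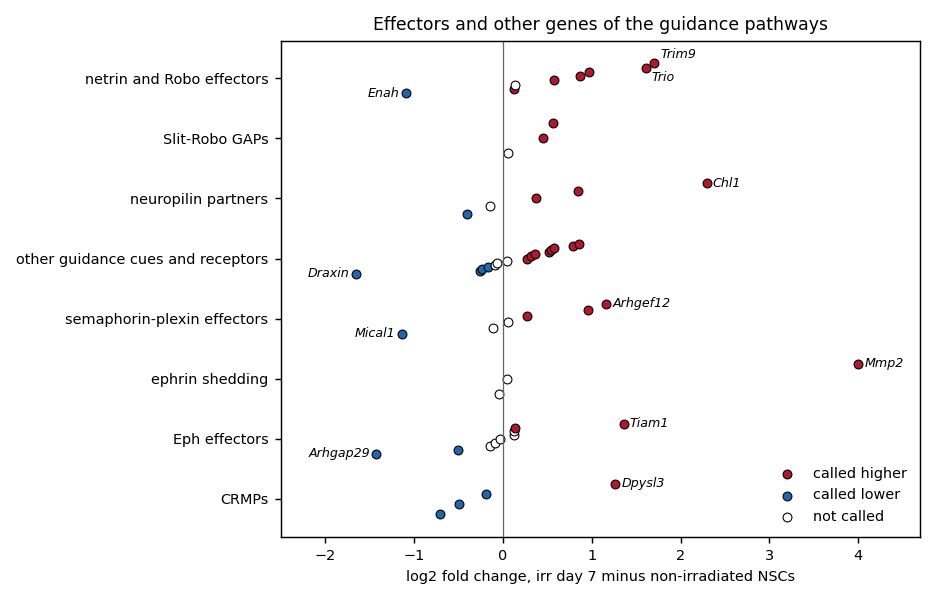
Log2 fold change of irr day 7 over non-irr NSCs for 53 of the 62 partner and effector genes above the filter, by role, with red points called higher (26), blue points lower (12) and open points not called (15), and genes changed at least 2-fold named. Mmp2 lies at 4.00, and the points of most roles lie on both sides of 0.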

How the data were processed

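Total RNA of 4 non-irr and 4 irr NSC cultures was hybridized to Affymetrix mouse arrays. The authors computed intensities with GCOS and, per the labels and methods, normalized them with RMA, which removes background, gives all arrays the same quantiles and combines the probes of a set, and deposited log2 values, which were used unchanged. After it, only changes relative to other genes can be seen. The number of arrays limits the precision, and p-values measure the spread between these cultures.

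Symbols came from the platform annotation, updated by Entrez number for 34754 probe sets: 34958 probe sets have 1 symbol, 932 several and 9211 none, and the latter 2 kinds were left out of results by gene. The 64 control probe sets were not tested. Those that exceeded an intensity of 100 on 1 array or more (21919) were fitted with limma 3.58.1 in R 4.3.3 (lmFit, eBayes) and p-values adjusted by Benjamini-Hochberg over all of them, and calls used an adjusted p under 0.05. The brightest probe set stood for a gene. Where all arrays of a group were below an intensity of 100, the fold is a bound against that level.

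Values by array are given for genes called with a 2-fold change and for the called gene with the largest increase and decrease in each family, and for the 3 largest changes each way in the partner list, of which 1 role is not reported here by itself. Members and lists were chosen with earlier results of these data known. The procedure was tested on simulated data. Alternatives were other filters, centring, variance models, a replicate block, other probe sets per gene, a test against a 1.5-fold change and omission of arrays. Omission of irr arrays in pairs was chosen after seeing the data. Promoters were searched with Python, and matplotlib drew the figures.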

Additional observations from a re-analysis of the deposited data

Results flagged for a closer look

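In 102 groups of 4 arrays (51 guidance genes in each treatment), 1 array stood apart from the other 3 in 3 groups by Dixon's test, where chance alone gives about 1 in 20. Dcc read 7.06 on non-irr array 4 and at most 6.69 on the others, a gap of 0.904 of the range of the group. Unc5c read 7.16 on irr array 1 and at most 6.87 on the others (0.846 of the range). Sema4b read 9.66 on irr array 2 and at least 9.78 on the others (0.85 of the range), with all 4 below the non-irr arrays.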

How the results depend on the processing

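Of the 38 called guidance genes, 30 kept their call and sign in every alternative in which they were tested. The 12 genes called lower became 7 when 1 array or more had to exceed an intensity of 200, and none of these was 2-fold lower (0, since Sema5a was then not tested), and 7 with arrays centred on reference genes. That centring used 7 reference genes, of which Pgk1, Hprt and Actb were themselves called lower (log2 fold change -0.66, -0.38 and -0.13) and Sdha higher (0.20). It gave 32 genes higher and 14 of them 2-fold. Sema3f reversed to a log2 fold change of 0.48 with the mean of its probe sets and to 0.68 with plain probe set identifiers. It also lost its call without irr replicate 1 (-0.22), without irr arrays 3 and 4 (-0.28), without irr arrays 1 and 2 (-0.21) and with reference centring (-0.09). With the mean of all probe sets 9 genes were 2-fold higher, and Dcc was then called lower. Epha10 was called lower with array weights, with the mean of all probe sets, without non-irr array 3, without irr array 1 and without irr arrays 1 and 2. Plxna3 was called higher with an intensity over 200, reference centring, array weights, the replicate block, without non-irr array 4 and without irr arrays 1 and 2. Sema4f was called lower in 5 alternatives and Unc5c higher in 4, while Sema4c lost its call in 6. Omission of each array in turn gave 26 to 27 guidance genes higher and 11 to 14 lower, 11 and 1 at 2-fold, and 30 to 32 and 11 to 15 for the partner list. No other alternative moved these counts by over 1.5 times.

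Arrays of the same number did not all deviate together (correlations of 0.04, 0.38, -0.21 and 0.51, 2 of 4 arrays matching best with their own number). With 4 numbers this cannot tell whether the numbers pair the samples. With a replicate block 27 guidance genes were higher and 12 lower, 11 and 1 at 2-fold, and 33 and 12 in the partner list. Values near an intensity of 100 are close to background. This limits, among others, Sema3b, Sema4f, Sema4g, Epha10, Efna1, Efnb3, Ntn5, Dcc, Plxna4 and Unc5c, and the irr values of Nrp2 and Sema4d.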
